A study of Mus musculus with 2 samples.

Results

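Activated helper CD4 T cells of the salivary gland were picked out of single-cell RNA sequencing (scRNA-seq) data by their transcripts, 92 of 4917 kept barcodes in the NOD/ShiLtJ library and 9 of 5674 in the CD1 library. A barcode stands for 1 captured cell, and a unique molecular identifier (UMI) for 1 captured RNA molecule. Members held at least 3 UMIs of *Cd3d*, *Cd3e*, *Cd3g* and *Trac* together and at least 1 UMI of *Cd4*. They held no UMI of *Cd8a*, *Cd8b1*, *Foxp3*, *Cd79a* or *Ms4a1*, and at most 1 UMI of *Ikzf2* and of *C1qa* and *Csf1r* together. The 3 receptor genes *Ctla4*, *Pdcd1* and *Tnfrsf4* had to reach a sum of at least 2 UMIs. Members were thus selected on measured values, and the genes of the rule are given as a description only. NOD/ShiLtJ (here NOD) is an inbred mouse strain that develops a Sjögren-like inflammation of the salivary glands, and CD1 is an outbred strain. Each strain gave 1 library, from pooled submandibular and adjacent sublingual glands of untreated female mice aged 20 weeks. The labels give 3 mice per pool and the study's methods 4. Cells carrying EpCAM or Ter119 and dead cells had been depleted, so the shares describe what those steps left. With 1 library per strain there is no replicate, and no test of a difference was possible.

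Helper T cells that meet antigen take on surface receptors that tune further signalling. CTLA-4 and PD-1, the products of *Ctla4* and *Pdcd1*, restrain the cell, and OX40, the product of *Tnfrsf4*, sustains it. Activated helpers can then follow different programmes. Follicular helper cells home to B cells through CXCR5 and feed them with interleukin-21, Th1 cells make interferon-γ, Th2 cells make interleukin-4 and interleukin-13, and Th17 cells make interleukin-17. In Sjögren's disease, lymphocytes including CD4 T cells gather around the ducts of the gland.

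The rule fixed the marker genes of the members, whose levels are therefore a description. Of the 92 NOD members, 86 held *Cd3e*, which encodes a chain of the T cell receptor complex, and their median was 20.5 UMIs over *Cd3d*, *Cd3e*, *Cd3g* and *Trac* and 3 UMIs of *Cd4*. *Ctla4* was held by 69 members (254 UMIs), *Tnfrsf4* by 60 (160 UMIs) and *Pdcd1* by 36 (63 UMIs). More than 1 of the 3 receptors was found in 61 members, the commonest pattern being *Ctla4* with *Tnfrsf4* in 29, and all 3 were found in 12. The receptor sum ran from 2 to 18 UMIs with a median of 3.5. At the threshold, 33 NOD members lay just inside with 2 receptor UMIs, and 76 cells lay just outside with 1. *Cd40lg*, which encodes the CD40 ligand by which helper cells act on B cells, lay outside the rule and was held by 64 members at 249 CPM (counts per 1e+06 UMIs of the class), against 38.2 CPM in *Foxp3* CD4 T cells and 28.8 CPM in CD8 T cells. It lay within 2-fold of its level in NOD CD4 T cells that met the other conditions but held no receptor UMI, so it did not set members apart from them.

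Most cells that met the other conditions were left out by the limit on *Ikzf2*. *Ikzf2* encodes Helios, a transcription factor frequent in regulatory T cells. Of 277 NOD cells that met every other condition, 185 were left out because they held 2 or more *Ikzf2* UMIs. Those 185 cells also carried no *Foxp3* UMI, by the rule. They held 105 CPM of *Il2ra*, the interleukin-2 receptor α-chain, against 26.2 CPM in members and 278 CPM in *Foxp3* cells, so they lay between the classes for that gene.

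NOD and CD1 differed in how many such cells were captured. Members made up 1.87% of kept NOD barcodes (95% Clopper-Pearson interval 1.51% to 2.29%) and 0.159% of kept CD1 barcodes (0.0726% to 0.301%). CD4 T cells as a whole numbered 856 in NOD and 34 in CD1. As a share of CD4 T cells the order was the opposite, with 10.7% in NOD (8.75% to 13.0%) and 26.5% in CD1 (12.9% to 44.4%), and the intervals overlapped at their ends. That order rests on the *Ikzf2* limit. With the cells left out by it added, the shares of CD4 T cells were 32.4% in NOD (29.2% to 35.6%) and 29.4% in CD1 (15.1% to 47.5%), and those of all T cells 13.0% and 5.21%. With the limit, members were 4.33% and 4.69% of all T cells, within counting error of each other. All intervals cover counting error only, not differences between mice or preparations. NOD members had a median of 7163 UMIs (4246 to 20837) and CD1 members 6777 (4919 to 14231). The libraries shared 6 kept barcodes, none of them a member.

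**Figure D1:**
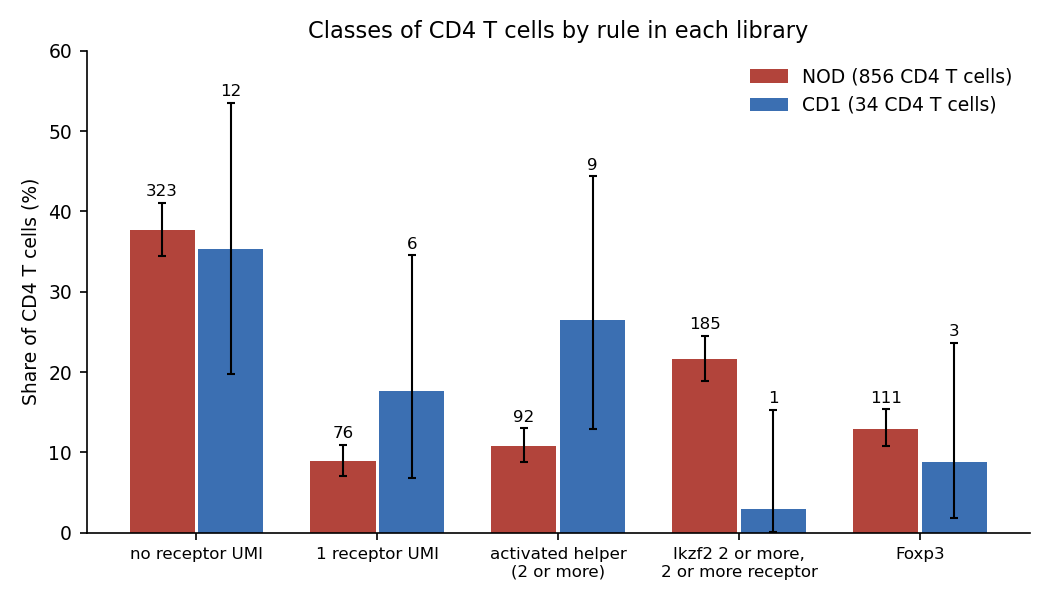
Share of CD4 T cells (vertical axis, percent) in each class by rule, for the NOD library (red, 856 CD4 T cells) and the CD1 library (blue, 34 CD4 T cells). Bars give the share, black lines its exact 95% binomial interval and numbers the cells in each class. The class left out for *Ikzf2* holds 185 NOD cells against 92 activated helpers.

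NOD members were compared with the 323 NOD cells that met the same rule but held no receptor UMI (receptor-negative CD4 T cells, median 6402 UMIs). Both classes come from the same library, so strain, mice and dissociation are shared. A gene was compared when it had at least 20 UMIs over both classes, and counted as higher or lower when its CPM differed at least 2-fold. Of 9342 genes, 447 were higher in members (4.78%) and 527 lower (5.64%), with a median log2 ratio of -0.01. These are shares past a fold, not tests.

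The genes that stood furthest above receptor-negative cells formed a mixed set of a ubiquitin ligase, an inhibitory receptor, a helper cytokine, matrix proteins and peptide precursors. *Pdzrn3*, which encodes a RING-finger ubiquitin ligase, had 252 UMIs in 24 members, 347 CPM (95% Poisson interval 305 to 392), against 4.02 CPM in receptor-negative cells, a log2 ratio of 6.43 (5.48 to 7.58). *Lag3*, which encodes an inhibitory receptor for MHC class II, had 73 UMIs in 27 members, 100.5 CPM, against 2 UMIs in receptor-negative cells, a log2 ratio of 6.81 (4.91 to 9.88) that ran from 4.77 to 7.93 over 16 alternative settings. *Il21*, the follicular helper cytokine, had 30 UMIs in 13 members and none in 323 receptor-negative cells, at least 30.8-fold higher when a count of 0 is set to 3 UMIs over the class. Here and below, such folds for a count of 0 rest on that setting and are not bounds of a 95% interval. Taking 3 cells as the upper limit of a count of 0, 0 of 323 still allows up to 0.929% of cells to hold a UMI. UMIs of these 3 genes were thus found in a minority of members, and cells without a UMI may hold the transcript.

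The other leading genes were held by 6 to 16 members each. *Itgb8*, whose integrin activates latent TGF-β, had 50 UMIs in 16 members and none in receptor-negative cells, at least 51.3-fold higher. *Fbn2*, which encodes fibrillin-2, had 67 UMIs in 13 members, and *Col24a1*, a collagen gene, had 41 UMIs in 12. *Stfa3*, which encodes a cysteine protease inhibitor, had 77 UMIs in 10 members, and *Nts*, the neurotensin precursor, 32 UMIs in 10. Single cells weighed heavily in some of them. Of 99 *Spp1* UMIs (osteopontin) 37 came from 1 member, and of 64 *Penk* UMIs (the enkephalin precursor) 48 did. Of the 10 leading genes, members held at least 1 in 39 of 92 cells and at least 3 in 25, whereas 7 of 323 receptor-negative cells held any and none held 3. The genes were chosen as those furthest above these receptor-negative cells, so the contrast in these counts was fixed by the choice. Outside the 10, *Gpm6b* was held by more members, with 337 UMIs in 48 of them. It had 464 CPM against 15.2 CPM in receptor-negative cells, a log2 ratio of 4.93 (4.42 to 5.49). In the cells left out by the *Ikzf2* limit it had 663 CPM, and in *Foxp3* cells 205 CPM.

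The leading genes were also found in other CD4 T cell classes. At least 1 of the 10 was found in 145 of the 185 cells left out by the *Ikzf2* limit and in 74 of 111 *Foxp3* cells (medians of 8215 and 8035 UMIs). *Pdzrn3* had 436 CPM in the former and 72.0 CPM in the latter. *Il21* had 79.0 CPM and 5.20 CPM, *Lag3* 80.9 CPM and 75.5 CPM, and *Tox*, a nuclear factor gene of persistently stimulated T cells, 2770 CPM and 3029 CPM. *Spp1* was highest in the cells left out, at 404 CPM. Members lay between these classes for *Pdzrn3*, *Il21* and *Spp1*.

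Shares of cells with a UMI were also taken at equal depth, with endothelial cells as a class that should lack these genes. After every cell was thinned to 2000 UMIs, *Pdzrn3* was found in 19.6% of members, 0.619% of receptor-negative cells and 0.315% of NOD endothelial cells (median 5460.5 UMIs before thinning). Shallower cells were left out of these shares, 67 of 702 endothelial cells and none of the other classes named. *Lag3* was found in 16.3%, 0.310% and 0.472% of the same classes, and *Il21* in 6.52%, 0% and 0%. Without thinning the member shares were 26.1%, 29.3% and 14.1%. Droplets with 10 to 100 UMIs, taken as empty, held 12.0 CPM of *Pdzrn3* and 20.8 CPM of *Lag3*. The part of free RNA in these values was not tested.

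Follicular helper genes were the list that stood furthest above receptor-negative cells in members. Of 16 genes, 12 had enough UMIs, 8 of them were at least 2-fold higher and none lower, with a median log2 ratio of 1.98. Their summed level was 1865 CPM in members and 605 CPM in receptor-negative cells, a log2 ratio of 1.62 (1.51 to 1.73). The sum was higher still in the cells left out by the *Ikzf2* limit, at 2497 CPM, and stood at 1256 CPM in *Foxp3* cells. *Tnfsf8*, which encodes CD30 ligand, was the most abundant, with 392 UMIs in 58 members and 540 CPM against 63.0 CPM, 8.56-fold higher. *Cd200*, a ligand that restrains myeloid cells, had 165 CPM against 17.4 CPM, a log2 ratio of 3.24 (2.71 to 3.80). It was 3.86 with doublets removed and 4.25 with barcodes of at least 3 endothelial UMIs left out. *Sh2d1a*, which encodes the adaptor SAP, and its partner receptor *Slamf6* were 2.59-fold and 2.66-fold higher. *Tox2*, a transcription factor gene, had 42.7 CPM against 2.68 CPM, from 31 UMIs of which 12 lay in 1 cell.

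The defining receptor and the master regulator of follicular helpers gave unlike values. *Cxcr5*, the B cell follicle homing receptor, had 19 UMIs in 13 members, 26.2 CPM against 4.47 CPM, a log2 ratio of 2.55 (1.37 to 3.82). Its share was 1.09% of members and 1.24% of receptor-negative cells after thinning, so nothing is read from its share at this depth. Empty droplets held 24.3 CPM of *Cxcr5*, and 1.42% of endothelial cells held a UMI before thinning. *Bcl6*, the transcription factor that directs follicular helpers, had 44.0 CPM against 40.2 CPM, and the interval of its log2 ratio of 0.13 ran from -0.50 to 0.73. *Ascl2* had no UMI and *Il4* 1 UMI in members.

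Th1 and tissue residency genes were on balance slightly lower in members, with *Ifng* as an exception. Of 17 genes with enough UMIs, 2 were at least 2-fold higher, none was lower, with a median log2 ratio of -0.26. The summed level was 2757 CPM against 3183 CPM. *Ifng*, which encodes interferon-γ, had 141 UMIs in 46 members and 194 CPM against 87.2 CPM, a log2 ratio of 1.15 (0.83 to 1.47). *Bhlhe40*, a transcription factor gene linked to helper cytokine production, was 2.37-fold higher. *Tbx21*, which encodes the Th1 regulator T-bet, had 147 CPM against 122 CPM, with an interval that held 0. *Cxcr6*, a homing receptor of tissue T cells, was lower at 288 CPM against 401 CPM, and *Itga1*, the α1-integrin of resident cells, at 88.1 CPM against 176 CPM. *Ccl5*, a chemokine gene, had 446 CPM against 774 CPM, and 142 of its 324 UMIs in members came from 1 cell. Its log2 ratio ran from -5.10 to -0.48 over the alternatives, lowest in members with at least 6 receptor UMIs.

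Th2 genes summed to 329 CPM in members and 196 CPM in receptor-negative cells, a log2 ratio of 0.75 (0.51 to 0.98). Of these genes, 3 had enough UMIs, with a median log2 ratio of 0.84, and 1 was at least 2-fold higher, *Il1rl1*, the interleukin-33 receptor, with 31 UMIs in 5 members. *Gata3*, the Th2 regulator, had 242 CPM against 135 CPM, a log2 ratio of 0.84 (0.56 to 1.11), while *Il13* had no UMI and *Il5* 2 UMIs in 1 cell. Of 8 Th17 genes with enough UMIs none was higher and 2 were lower, *Tmem176a* and *Il17f*, and the summed level was 329 CPM against 414 CPM. *Il17a*, *Il17f* and *Il22* had no UMI in members. A count of 0 in 92 cells allows up to 3.26% of cells to hold a UMI, by the same limit of 3 cells. Cytotoxic genes summed to 381 CPM against 499 CPM, with 3 of 7 lower and none higher. *Gzma*, which encodes granzyme A, had 2 UMIs in members, and *Prf1*, which encodes perforin, had 3.

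**Figure D2:**
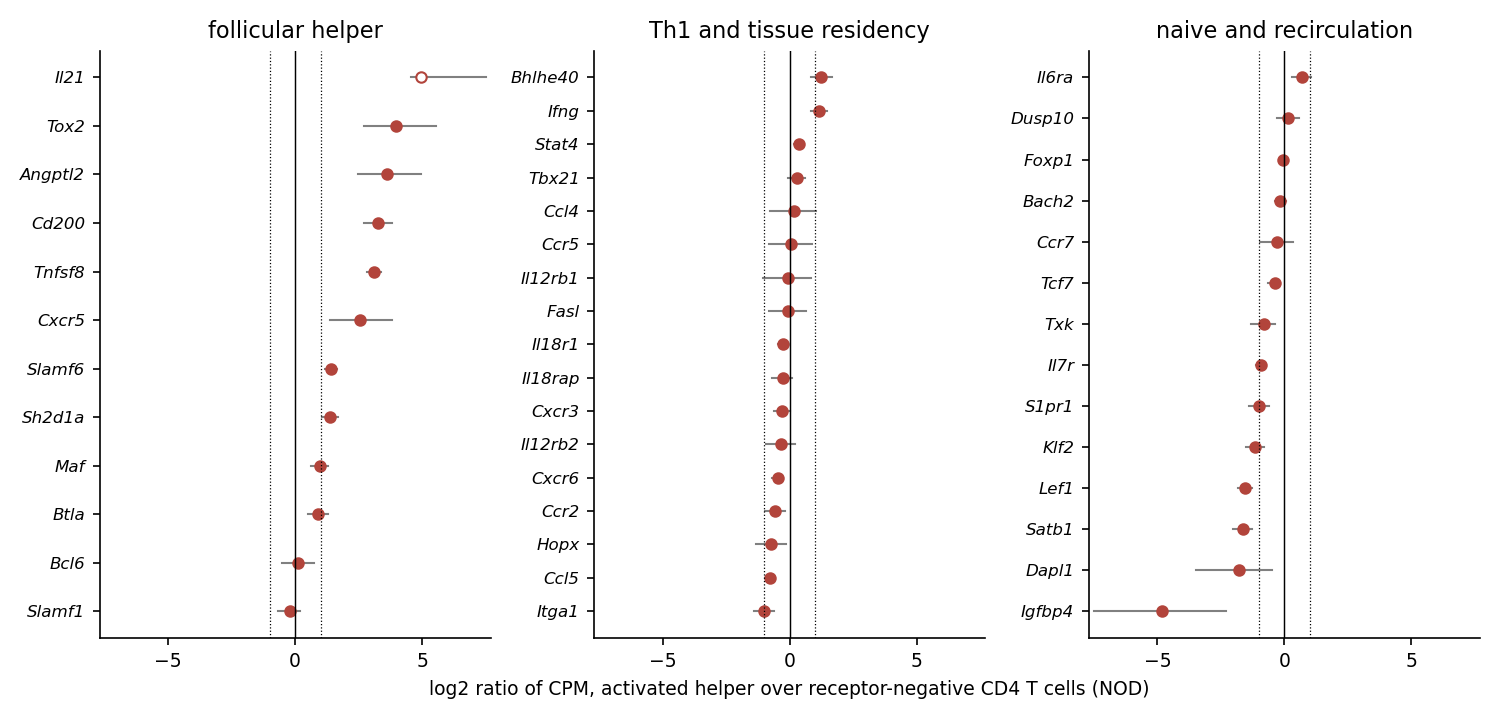
Log2 ratio of CPM in 92 NOD activated helper over 323 receptor-negative CD4 T cells (horizontal axis) for genes of 3 lists with at least 20 UMIs over both classes, 1 naive gene left out. Points are ratios, grey lines 95% intervals from counting error (drawn to 7.5 either way) and dotted lines 2-fold. The open point has a count of 0 set to 3 UMIs, because *Il21* had no UMI in receptor-negative cells. Follicular helper genes lie mostly to the right, Th1 genes around 0 and naive genes mostly to the left.

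Of the cytokine and ligand genes, most lay within 2-fold. Of 12 with enough UMIs, 3 were at least 2-fold higher (*Tnfsf11*, *Lta* and *Tnfsf13b*) and 1 lower (*Il2*), with a median log2 ratio of 0.53. *Tnfsf11*, which encodes RANK ligand, had 150 UMIs in 49 members, 206 CPM against 36.7 CPM, a log2 ratio of 2.49 (2.10 to 2.90). *Lta*, which encodes lymphotoxin α, had 33.0 CPM against 12.1 CPM, and *Tnfsf13b*, the B cell survival factor BAFF, was 3.08-fold higher on 10 UMIs. *Ltb*, the membrane partner of lymphotoxin α, was the most abundant of the list at 841 CPM against 628 CPM. Both *Tnfsf8* and *Tnfsf11* were found in 38 of 92 members. *Il2*, the growth factor of activated T cells, had only 3 UMIs, and *Tnf* had 167 CPM against 137 CPM, with an interval that held 0.

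Most costimulatory and checkpoint receptors outside the rule lay within 2-fold of receptor-negative cells. Of 13 with enough UMIs, 2 were at least 2-fold higher and none lower, at a median log2 ratio of 0.48. These were *Lag3* and *Tnfrsf18*, which encodes GITR, with 122 CPM against 60.8 CPM. *Icos*, a costimulator needed by follicular helpers, had 344 CPM against 215 CPM, and *Cd28* had 527 CPM against 341 CPM, both with intervals above 0. *Tigit* and *Havcr2*, checkpoint genes of chronically stimulated cells, had 4 and 5 UMIs in members, too few to compare.

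Genes that respond to T cell receptor signals had no common direction. Their summed level was higher in members, 4010 CPM against 2302 CPM, but the median log2 ratio of the 19 genes was -0.02, because the sum was weighted by *Tox*, which had 1297 UMIs in 73 members, 1785 CPM against 396 CPM, a log2 ratio of 2.17 (2.05 to 2.30). It was found in 70.7% of members and 40.9% of receptor-negative cells after thinning, and in 0.472% of endothelial cells, while empty droplets held 340 CPM. *Nfatc1*, a calcium-dependent transcription factor gene, had 266 CPM against 134 CPM. The immediate early gene *Egr1* was lower, at 20.6 CPM against 65.3 CPM, and *Nr4a1*, another early gene, had 12.4 CPM against 12.5 CPM.

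Genes tied to tolerance and exhaustion were higher in part. Of 12 with enough UMIs, 4 were at least 2-fold higher and 1 lower, with a median log2 ratio of 0.62. *Izumo1r*, which encodes folate receptor 4, had 145 CPM against 21.0 CPM, a log2 ratio of 2.78 (2.27 to 3.31). *Nrp1*, which encodes neuropilin-1, had 568 CPM against 175 CPM, and *Nt5e*, the ecto-enzyme CD73, was 2.89-fold higher. *Rnf128*, the anergy-related ligase GRAIL, was 2.86-fold higher on 13 UMIs. *Eomes* was the lower gene, with 4 UMIs in 1 member. *Nrp1* was also found in 97.5% and *Cd200* in 60.2% of thinned endothelial cells, whereas *Izumo1r* was found in none of them and *Nt5e* in 3.78%.

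Genes of naive and recirculating cells were the list that stood lowest among the T cell programmes apart from proliferation. Of 15 with enough UMIs none was at least 2-fold higher and 6 were lower, at a median log2 ratio of -0.91. The summed level was 2224 CPM against 3480 CPM. *Lef1*, a transcription factor gene of naive T cells, had 167 CPM against 483 CPM, a log2 ratio of -1.54 (-1.82 to -1.27). *Satb1* and *Klf2*, which maintain quiescence and egress, were 3.10-fold and 2.24-fold lower, and *Igfbp4* had 1 UMI against 86. *Il7r*, the survival receptor, was 1.88-fold lower. *Foxp1* and *Bach2* lay near equal levels, at 534 CPM against 553 CPM and 304 CPM against 338 CPM.

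Dividing cells were scarce among members. Proliferation genes summed to 432 CPM against 770 CPM, and 6 of 9 were at least 2-fold lower. *Mki67* had 13 UMIs in 8 members, and *Birc5*, *Ube2c*, *Ccnb2*, *Cdk1*, *Pclaf* and *Rrm2* had none. In receptor-negative cells, 36 of 41 *Ube2c* UMIs and 53 of 59 *Cenpf* UMIs came from 1 cell each, so those differences rest on few cells. Interferon response genes were all within 2-fold, with a median log2 ratio of -0.39, and *Ly6a*, a surface protein gene induced by interferon, had 552 CPM against 922 CPM. Adhesion and migration genes summed to 7759 CPM against 7783 CPM, with *Itgae* lower and none of the 19 higher. *Cd44*, a marker of antigen experience, had 429 CPM against 287 CPM. The 8 ribosomal protein genes had a median log2 ratio of -0.23 and none was past 2-fold.

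Markers of other cells were low in members and uneven in the class they were compared with. Endothelial markers summed to 88.1 CPM in members and 290 CPM in receptor-negative cells, with 5 of 6 at least 2-fold lower, *Pecam1* the most abundant in members and *Cdh5* at 0. The endothelial marker *Flt1* was among the 10 lowest genes in members, as were *Cyyr1*, *Ebf1*, *Nfib* and *Arhgap29*, which are not in the endothelial list. Of 143 *Flt1* UMIs in receptor-negative cells, 67 came from 1 cell. Leaving out barcodes with at least 3 UMIs over *Flt1*, *Kdr*, *Cdh5* and *Plvap* removed 1 member and 5 receptor-negative cells. B and plasma cell markers summed to 124 CPM in members and 168 CPM in receptor-negative cells, led by *Ighm*. Myeloid markers summed to 28.9 CPM and 30.4 CPM, led by *Apoe*, with *Adgre1*, *Cd14* and *Fcgr3* at 0 in members. Natural killer and NKT markers summed to 121 CPM and 162 CPM, led by *Ncr1* with 30 UMIs in 3 members, and 2 members held at least 5 UMIs over *Trdc*, *Ncr1*, *Fcer1g* and *Klre1*. All 11 *Trdc* UMIs, the only signal of the γδ T cell list, came from 1 member. Epithelial secretory markers summed to 57.8 CPM and 38.4 CPM, led by *Prol1*, with 6 of 10 at 0, among them *Klk1*, *Krt18*, *Smgc*, *Muc19* and *Bpifa2*. The part of these cells in the comparisons was not tested.

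Members with more receptor UMIs carried more of the leading genes. They were divided into 33 cells with 2 receptor UMIs, 27 with 3 to 5 and 32 with at least 6, of similar depth (medians of 6814, 7423 and 7791 UMIs). *Tox* went from 713 CPM to 1699 CPM and 2826 CPM over these groups. *Tnfsf8* went from 174 CPM to 452 CPM and 942 CPM. *Pdzrn3* had 104 CPM, 132 CPM and 743 CPM, and *Lag3* 16.6 CPM, 50.2 CPM and 218 CPM. *Il21* had no UMI in the cells with 2 receptor UMIs, 36.5 CPM in the middle group and 82.6 CPM in the highest. *Ifng* was likewise highest in the last group, at 308 CPM against 128 CPM in each of the others.

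Other genes ran the other way. *Ccl5* went from 995 CPM to 356 CPM and 22.5 CPM, *Cxcr6* from 456 CPM to 320 CPM and 109 CPM, and *Ccr2*, an inflammatory chemokine receptor gene, from 178 CPM to 95.9 CPM and 30.0 CPM. The first *Ccl5* value includes the 1 member that held much of the *Ccl5*, and was not recomputed without that cell. The size of the first *Ccl5* step therefore rests in part on 1 cell. *Itga1* had no UMI in the cells with at least 6 receptor UMIs and 149 CPM in those with 2. *Il7r* went from 535 CPM to 338 CPM and 173 CPM. The 10 leading genes were more often found at higher receptor sums. At least 1 was found in 27 of 32 cells with at least 6 receptor UMIs, in 9 of 27 with 3 to 5 and in 3 of 33 with 2. Because the sum of receptor UMIs also set membership, these values describe the members and are no independent support.

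**Figure D3:**
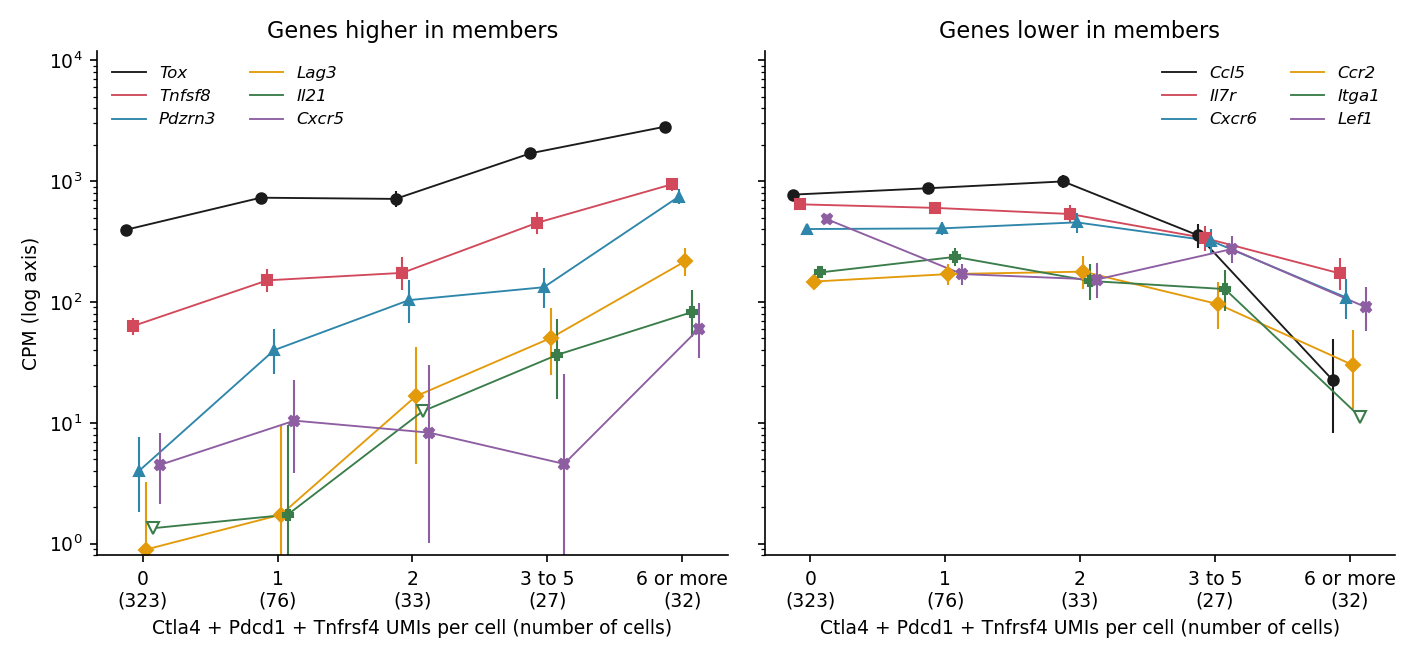
CPM (vertical log axis) of 12 genes in NOD helper CD4 T cells grouped by their summed *Ctla4*, *Pdcd1* and *Tnfrsf4* UMIs (horizontal axis, number of cells in brackets). Points are class sums with exact 95% Poisson intervals, and open triangles mark no UMI, drawn at the level of 3 UMIs over the class. Genes in the left panel are highest at 6 or more receptor UMIs, and those in the right panel lowest.

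Values also differed by which receptor a member held, but the groups differed in receptor sum as well. At least 6 receptor UMIs were held by 31 of 69 members with *Ctla4* and 1 of 23 without, by 28 of 60 with *Tnfrsf4* and 4 of 32 without, and by 14 of 36 with *Pdcd1* and 18 of 56 without. The receptors are genes of the rule, so these values too are a description. *Pdzrn3* had 454 CPM in the 69 members with *Ctla4* and 42.3 CPM in the 23 without, and *Izumo1r* 184 CPM and 31.7 CPM. *Il21* was found only among members with *Ctla4*. For *Pdcd1* the order of *Pdzrn3* was the opposite, 273 CPM in the 36 members with it and 393 CPM in the 56 without, while *Tox* had 2407 CPM and 1399 CPM. Members with *Tnfrsf4* (60 cells) had 204 CPM of *Cd200* and 253 CPM of *Tnfsf11*, and those without (32 cells) 67.3 CPM and 91.3 CPM, at medians of 8061 and 6395.5 UMIs. *Cxcr6* was lower with *Tnfrsf4*, at 218 CPM against 461 CPM, and with *Ctla4*, at 229 CPM against 454 CPM.

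Members also divided by chemokine receptor. *Cxcr5* was held by 13 members, *Cxcr6* without *Cxcr5* by 46, both by 3 and neither by 33. Members with *Cxcr5* had 650 CPM of *Pdzrn3* and 258 CPM of *Lag3*, and members with *Cxcr6* alone had 76.1 CPM and 28.8 CPM. *Slamf6* had 692 CPM and 191 CPM in the same groups, and *Tox* 3276 CPM and 949 CPM. *Il18r1*, an interleukin-18 receptor gene, was higher with *Cxcr6* alone, at 519 CPM against 108 CPM, as was *Tbx21* at 205 CPM against 58.4 CPM. *Itga1* was found only in the group with *Cxcr6* alone among these 3 groups. Summed over the Th1 and tissue residency list, which holds *Cxcr6* itself, the groups lay closer. The sums were 3051 CPM with *Cxcr5* and 3323 CPM with *Cxcr6* alone. Of the 366 UMIs in the *Cxcr5* group, 240 came from its 3 members with both receptors. The 10 members with *Cxcr5* but no *Cxcr6* had 1344 CPM. Those 3 members also held 36 of the 38 natural killer and NKT marker UMIs of the *Cxcr5* group. The 33 members with neither receptor resembled those with *Cxcr5* for *Pdzrn3*, at 643 CPM, and *Tox*, at 2405 CPM. The groups differed in depth, with medians of 9232, 7565.5 and 6238 UMIs for *Cxcr5*, *Cxcr6* alone and neither, so some cells without a UMI may hold the transcript. They differed in receptor sum too, with at least 6 receptor UMIs in 11 of 13, 9 of 46 and 12 of 33 members, and the part of that sum in these contrasts was not tested. Empty droplets held *Cxcr5* at close to its level in members, as given above. Cells counted as holding *Cxcr5* may therefore carry free RNA, and this part was not tested either.

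**Figure D4:**
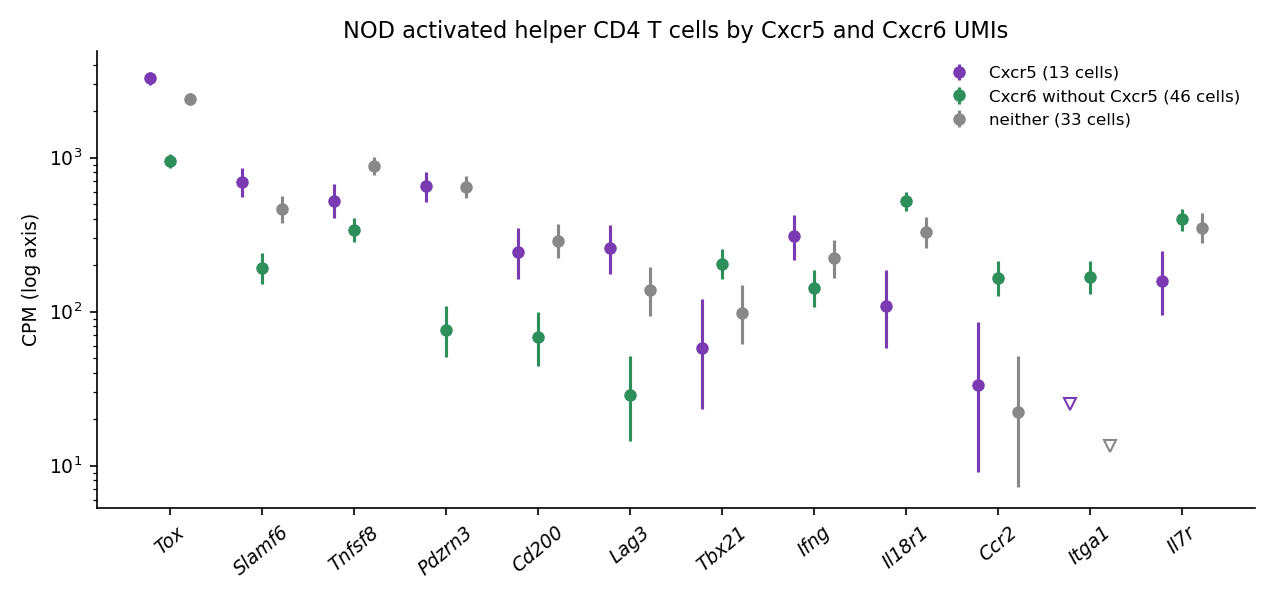
CPM (vertical log axis) of 12 genes in NOD activated helper CD4 T cells that held *Cxcr5* (violet, 13 cells), *Cxcr6* without *Cxcr5* (green, 46 cells) or neither (grey, 33 cells). Lines are exact 95% Poisson intervals, and open triangles mark no UMI, drawn at the level of 3 UMIs. *Pdzrn3*, *Lag3* and *Tox* are lowest with *Cxcr6*, and *Itga1* was found with *Cxcr6* alone.

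The cytokine transcripts overlapped across these groups. Of 13 members with *Il21*, 10 also held *Ifng*, 9 held *Lag3*, 5 held *Pdzrn3*, 4 held *Cxcr5*, 3 held *Cxcr6* and 3 held *Bcl6*. Of 46 members with *Ifng*, 19 also held *Tbx21*. *Pdzrn3* and *Lag3* were found together in 18 members, *Pdzrn3* with *Cxcr5* in 8 and with *Cxcr6* in 4. Cells of 1 library share their source, so these overlaps are counts and not replicates.

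Against the 111 NOD cells with *Foxp3*, the regulator of suppressive T cells, members had more genes lower than higher. Of 8548 genes, 277 were at least 2-fold higher (3.24%) and 711 lower (8.32%). With a minimum of 50 UMIs these counts were 102 and 298, with 10 UMIs 489 and 1241, and without the largest *Foxp3* barcode 288 and 636. This comparison uses the same members as the one above. *Tgfbr3*, a TGF-β co-receptor gene, had 223 CPM against 29.5 CPM, a log2 ratio of 2.92 (2.38 to 3.50). *8030451A03Rik* had 34 UMIs in 16 members and 3 in *Foxp3* cells. The other genes furthest above *Foxp3* cells rested on 1 cell for most of their UMIs, 27 of 30 for *Stab2*, 25 of 25 for *Thsd4* and 22 of 37 for *A930011G23Rik*. *Cd40lg*, *Tnfsf8* and *Ifng* were 6.53-fold, 4.64-fold and 3.29-fold higher, and *Il21* was 7.93-fold higher on 30 and 6 UMIs.

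Several genes of the lists were lower in members than in *Foxp3* cells. *Il2ra* was 10.6-fold lower, *Tnfrsf9*, which encodes 4-1BB, 8.87-fold and *Tigit* 11.2-fold. *Itgae*, the αE-integrin of epithelial residency, had 4.13 CPM against 110 CPM. *Snx9*, a sorting nexin gene, and *Gm53559* each had 1 UMI in members, against 142 CPM and 217 CPM. *Itgb8* and *Izumo1r*, which were high against receptor-negative cells, were 3.07-fold and 2.08-fold lower than in *Foxp3* cells, and *Tox* was 1.70-fold lower. Of the proliferation genes, 9 of 10 were at least 2-fold lower in members. *Cd74*, *Fn1* and *Ccl6* were also among the 5 lowest genes, but 358 of 428, 81 of 90 and 87 of 87 of their UMIs came from 1 *Foxp3* barcode of 38473 UMIs, which held 100 *Lyz2* UMIs as well. Without it, *Cd74* stood at 62.8 CPM in *Foxp3* cells, against 16.5 CPM in members.

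Against 511 NOD CD8 T cells, 559 of 10714 genes were higher in members (5.22%) and 1144 lower (10.7%). *Fbn2*, *Stfa3*, *Pdzrn3*, *Kcnc2* and *Col24a1* stood furthest above. *Kcnc2*, a potassium channel gene, had 80 UMIs in 14 members and 2 in CD8 cells, and *Fbn2* had none in CD8 cells, at least 134-fold higher in members. Of the follicular helper list, 9 of 12 genes were higher and none lower, with *Maf*, a cytokine regulator gene, 11.4-fold higher. *Icos* and *Cd40lg* were 7.87-fold and 8.66-fold higher. Cytotoxic genes were lower in 9 of 10 cases. *Gzma* had 2.75 CPM against 462 CPM, a log2 ratio of -7.39 (-10.44 to -5.53). *Nkg7*, a granule gene, was 5.06-fold lower and *Ccl5* 13.0-fold lower. *Itgae*, on 3 UMIs in members, had a log2 ratio of -5.33 (-7.62 to -3.78) and *Klra13-ps*, on 2, one of -5.43 (-8.48 to -3.57). *Cd244a* and *Srgap3*, with no UMI in members, were at least 21.7-fold and 15.8-fold lower.

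The 9 CD1 members held 69795 UMIs in all, so that 3 UMIs correspond to 43.0 CPM, and single genes are hard to compare. They held *Ctla4* in 7 cells, *Pdcd1* in 5 and *Tnfrsf4* in 2, with a receptor sum of 2 to 4 UMIs. None reached the 6 receptor UMIs of the 32 NOD cells that carried most of the leading genes. *Pdzrn3*, *Lag3*, *Il21*, *Stfa3*, *Itgb8* and *Cxcr5* had no UMI in CD1 members. For *Pdzrn3* this made NOD members at least 8.07-fold higher, and for *Lag3* at least 2.34-fold. Among the 55 NOD members with at most 4 receptor UMIs, as in CD1, *Pdzrn3* was at least 3.04-fold higher and *Lag3* lay under the CD1 floor. *Il21* and *Cxcr5* in NOD members lay under the CD1 floor, so a difference was not detectable at this depth. A count of 0 among 9 cells allows a share of up to 33.3%, above the 26.1% of NOD members with *Pdzrn3*. Of the 10 leading genes, 1 was found in CD1 members, *Fbn2* with 1 UMI.

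Other genes were present in CD1 members at levels near, below or above those of NOD. *Icos* was found in all 9, with 401 CPM (267 to 580) against 344 CPM in NOD, and *Cd40lg* in 7. *Cxcr6* was found in 6, with 430 CPM (290 to 614) against 288 CPM, and against 421 CPM in NOD members with at most 4 receptor UMIs. *Tox* was found in all 9 with 903 CPM (694 to 1155), and 37 of its 63 UMIs came from 1 cell. NOD members with at most 4 receptor UMIs held 1058 CPM of *Tox*, within counting error of CD1, and 208 CPM of *Icos*, below CD1. *Tnfsf8* had 5 UMIs and 71.6 CPM (23.3 to 167) against 540 CPM in NOD, *Ifng* 1 UMI and 14.3 CPM against 194 CPM, and *Mndal*, an interferon-inducible gene, 4 UMIs and 57.3 CPM against 362 CPM. Against NOD members with at most 4 receptor UMIs, which held 290 CPM of *Tnfsf8*, 109 CPM of *Ifng* and 433 CPM of *Mndal*, the log2 ratios were 2.02 (0.76 to 3.67), 2.93 (0.37 to 8.26) and 2.92 (1.54 to 4.81). In the other direction, *Gpr183*, an oxysterol receptor gene that guides lymphocyte migration, had 37 UMIs in 7 CD1 members, 530 CPM (373 to 731) against 84.0 CPM in NOD and 119 CPM in NOD members with at most 4 receptor UMIs. *Lta* had 444 CPM against 33.0 CPM, but 28 of 31 UMIs came from 1 cell.

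Summed over lists, CD1 members held 1146 CPM of follicular helper genes (909 to 1427) against 1865 CPM in NOD, a log2 ratio of NOD over CD1 of 0.70 (0.38 to 1.05). Naive genes had a log2 ratio of 0.69, interferon response genes 0.43 and Th2 genes 1.52, the last on 8 CD1 UMIs. T cell receptor response genes had 0.35, tolerance genes 0.25 and proliferation genes -0.13. Th1 genes had -0.38, Th17 genes -0.57, cytotoxic genes -0.85, cytokine genes -0.41 and adhesion genes -0.31. The costimulatory list was at 0.01 (-0.21 to 0.23). These ratios set CD1 members, with at most 4 receptor UMIs, against NOD members of which 32 held at least 6. Against the 55 NOD members with at most 4, a comparison added after seeing the data, follicular helper genes were at 1227 CPM, a log2 ratio of 0.10 (-0.24 to 0.46), and Th1 genes at 3403 CPM, a log2 ratio of -0.08 (-0.27 to 0.12). T cell receptor response genes were then at 0.01, tolerance genes at -0.09, proliferation genes at 0.07 and cytotoxic genes at -0.48, all with intervals that held 0. Naive genes stayed at 0.75 (0.45 to 1.07), interferon response genes at 0.64 (0.41 to 0.88), Th2 genes at 1.41, cytokine genes at -0.48, Th17 genes at -0.71 and adhesion genes at -0.23, with intervals that did not hold 0. The cytokine value rested on the CD1 cell with 28 *Lta* UMIs. Without it, the log2 ratio was -0.04 (-0.33 to 0.27) against these 55 members and 0.03 over all NOD members. The Th1 value includes the NOD member that held much of the *Ccl5*, and was not recomputed without that cell. The ribosomal genes, taken as a check, were at -0.20 (-0.29 to -0.11), and at -0.18 (-0.27 to -0.09) against the 55 members, close to the adhesion value. Within the CD1 library, follicular helper genes were also higher in members than in its 12 receptor-negative cells, with a log2 ratio of 0.79 (0.33 to 1.26). Some lists had the opposite sign to NOD in that comparison. Th1 genes were at 0.10, Th17 genes at 0.19, cytotoxic genes at 0.53 and Th2 genes at -0.87, all with intervals that held 0. Adhesion genes were at 0.28 (0.14 to 0.43), and the remaining T cell lists had the sign seen in NOD. Strain, pool of mice and library cannot be told apart in these values.

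**Figure D5:**
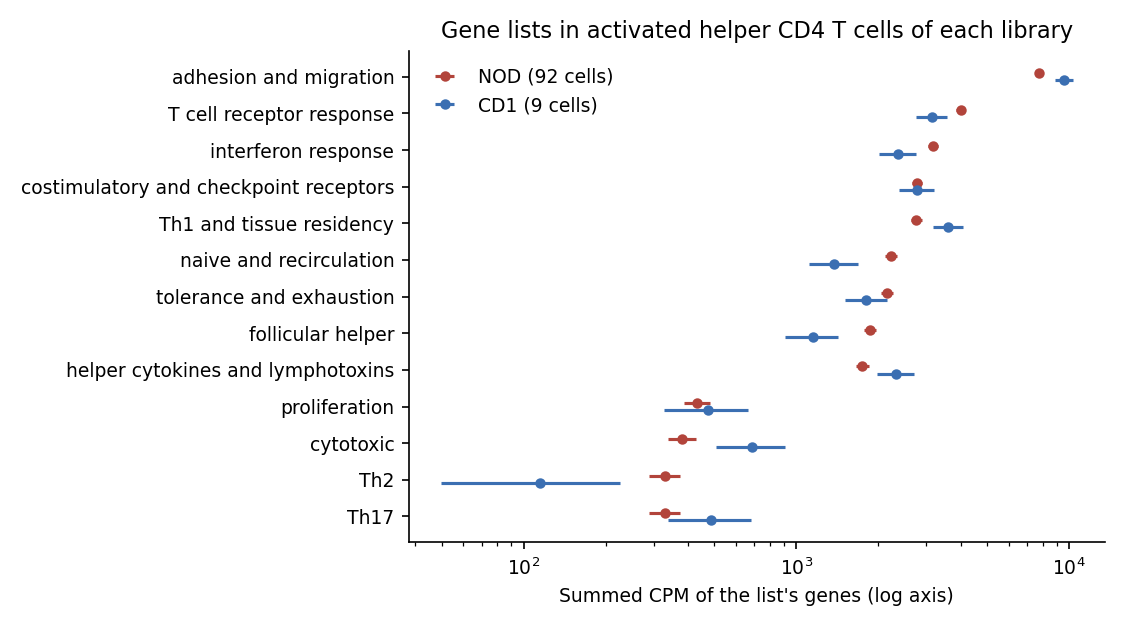
Summed CPM of each gene list (horizontal log axis) in activated helper CD4 T cells of the NOD library (red, 92 cells) and the CD1 library (blue, 9 cells). Lines are exact 95% Poisson intervals of the summed UMIs and cover counting error only. Follicular helper and naive genes are higher over all NOD members and Th1 and cytotoxic genes higher in CD1, but against the 55 NOD members with at most 4 receptor UMIs only the naive difference of these 4 had an interval that did not hold 0. The Th1 value was not recomputed without the NOD member that held much of the *Ccl5*.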

How the data were processed

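The files hold counts as deposited by the authors, whole-number UMIs in a table of genes by barcodes that Cell Ranger had not filtered. The submitters' processing notes name Cell Ranger 8.0.0, Seurat 5.0.1, R 4.3.1 and GRCm39. The NOD table summed to 52790319 UMIs in 1298073 barcodes and the CD1 table to 56483149 in 1331542. Here, barcodes with at least 500 UMIs and 300 genes and at most 10% of UMIs in 37 mitochondrial genes were kept. Doublets were kept in the values reported and removed in an alternative (Scrublet in scanpy 1.11.5). UMIs were summed per class and divided by the class total. Poisson intervals of CPM and Clopper-Pearson intervals of shares were exact, and those of log2 ratios were binomial, conditional on both counts, all at 95% and for counting error only. Python 3.11.15, numpy 2.4.6, scipy 1.17.1 and matplotlib 3.10.9 were used, and the steps were tested on simulated data.

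Genes named came from the rule, 20 lists (254 genes present), the 10 highest and 10 lowest genes against receptor-negative cells, and the 5 highest and 5 lowest against *Foxp3* and CD8 cells. Genes were ranked by the interval bound nearest 0, without genes of the rule, T cell receptor segments and mitochondrial genes. *Gpm6b* was added after the values were seen. Members and lists were chosen with earlier results of these data known. Some genes counted in the lists are not reported singly here.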

Additional observations from a re-analysis of the deposited data

Results flagged for a closer look

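In the NOD library, 7 barcodes met every gene condition for activated helper CD4 T cells but lay over the limit of 10% mitochondrial UMIs. They stood out because they belong to data outside the comparisons, among 1583 NOD barcodes over that limit. In the CD1 library 0 of 1340 such barcodes met the conditions, which allows a share of up to 0.224%.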

How the results depend on the processing

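Of 362 recomputed values, 275 moved by less than their counting interval or, for numbers of genes, by less than 1.5 times, 86 moved further and 1 reversed. That was *Bcl6*, with a log2 ratio over receptor-negative cells of -1.11 at a limit of 5% mitochondrial UMIs and a range of -1.11 to 0.92 over 16 alternatives. Over the same alternatives, the log2 ratio of *Tnfsf11* ran from 2.32 to 3.28 and that of *Lef1* from -2.42 to -1.24. *Tnfsf8* ran from 2.58 to 3.90, *Tox* from 2.09 to 2.84 and *Cxcr5* from 2.07 to 3.75. *Ifng* ran from 1.03 to 1.82 and *Cxcr6* from -1.88 to -0.38. Summed log2 ratios were recomputed only for follicular helper, Th1, T cell receptor response, tolerance, naive, proliferation and interferon response genes. Each of them kept its sign in 16 of 16. For follicular helper genes it was 1.35 at 5% mitochondrial UMIs, 1.93 with at least 3 receptor UMIs, 1.48 with *Ctla4* and 1.76 with *Tnfrsf4* dropped from the rule, 1.97 on cells thinned to 4000 UMIs, 1.86 without the *Ikzf2* condition and 2.26 with at least 6 receptor UMIs. For Th1 genes it was -0.50 with at least 3 receptor UMIs, -0.45 without *Ctla4*, -0.53 without *Pdcd1*, -0.34 thinned and -0.88 with at least 6. For naive genes it was -0.44 at 5% mitochondrial UMIs, -0.54 without *Pdcd1* and -0.75 with at least 6 receptor UMIs. The NOD share of members was 1.20% with at least 3 receptor UMIs, 1.04% without *Ctla4*, 1.42% without *Tnfrsf4* and 5.63% without the *Ikzf2* condition. The CD1 share was 0.0705% with at least 3, 0.0352% without *Ctla4* and 0.0225% thinned. The number of genes at least 2-fold higher was 672 thinned, 193 with at least 50 UMIs over both classes, 734 with at least 10, 1033 without the *Ikzf2* condition and 671 with at least 6 receptor UMIs, and that of lower genes was 802 without *Ctla4*, 179 with at least 50 UMIs, 839 with at least 10 and 1131 with at least 6 receptor UMIs. Against CD8 T cells, 304 genes were higher and 681 lower with at least 50 UMIs, and 842 and 1347 with at least 10, and against *Foxp3* cells the counts stand beside the result. The cause was not tested. The conditions on *Ikzf2* and endothelial UMIs and the members with at least 6 receptor UMIs were alternatives chosen after seeing the data, as were all those for *Foxp3* and CD8 cells and between strains. No paired analysis was possible because each strain has 1 library. Intervals leave out variation between mice, and with 9 CD1 members a gene without a CD1 UMI could be compared between strains only above 43.0 CPM.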

Other observations

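Among T cell receptor β-chain V segments, *Trbv2* was noticed after the values were seen. It was found in 8 of 22 NOD activated helpers with a UMI of any V segment (36.4%, exact 95% binomial interval 17.2% to 59.3%), 4 of 53 receptor-negative cells (7.55%), 13 of 41 cells left out by the *Ikzf2* limit (31.7%), 7 of 27 *Foxp3* cells (25.9%) and 4 of 71 CD8 T cells (5.63%). Few cells held such a UMI, and the RNA came from 1 pool of mice.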
